A study of Mus musculus with 68 samples.

Results

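The genes of oxidative phosphorylation were followed in 68 RNA-seq libraries of mouse pharyngeal arches. Members were the rows of the deposited expression table whose gene symbol named a subunit of complexes I to V (symbols beginning Nduf, Sdh, Uqcr, Cox4 to Cox8 or Atp5 followed by a subunit designation, and the mitochondrially encoded mt-Nd, mt-Co, mt-Cytb and mt-Atp genes). This gave 99 of 21948 genes, namely 80 nuclear subunit genes (with Cox6c2, which GENCODE M21 annotates as a processed pseudogene), 13 mitochondrially encoded genes, 5 pseudogenes by their symbol and Atp5s, which is not a subunit of the synthase. The 98 members that reached 1 CPM (the deposited unit, reads scaled to library size) in 3 or more libraries were tested, and Cox7a1, the contractile-tissue isoform of its complex IV subunit, was not. The rule reads gene symbols only.

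The libraries came from PA1, the arch that forms the jaws, and from PA2, the arch behind it, of CBA/Ca/J x C57BL/10 embryos at stages E9.0, E9.5, E10.0 as well as E10.5. Genotypes were wildtype or Hoxa2-/-, which is the loss of both copies of a homeobox gene expressed in PA2. Over the 4 stages, wildtype PA1 gave 5, 5, 5 and 3 libraries, wildtype PA2 had 4, 4, 5 and 3, and PA1 and PA2 labelled Hoxa2-/- each had 4, 5, 5 and 3. Each library held 1 arch type of a single embryo, 33 of the 35 embryos gave both arches, and each was made from polyadenylated RNA amplified with a low-input kit.

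Oxidative phosphorylation makes ATP in the inner mitochondrial membrane. Complexes I (NADH dehydrogenase), III (cytochrome bc1) and IV (cytochrome c oxidase) pump protons out of the matrix, complex II (succinate dehydrogenase) feeds electrons to the chain without pumping, and complex V (ATP synthase) lets the protons back to make ATP. Complexes I, III, IV and V combine subunits encoded in the nucleus with core subunits encoded in mitochondrial DNA, whereas all subunits of complex II are nuclear. Mitochondrial genes are transcribed as long polycistronic RNAs by a separate polymerase, so the RNA levels of the 2 genomes can move apart.

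Features of the whole series bear on what follows. Hoxa2 RNA lay below 1 CPM in every PA1 library. In PA2 it was not lower with the label Hoxa2-/-, at 16.8 to 36.3, 48.6 to 102, 87.2 to 113 and 116 to 147 CPM over the 4 stages against 20.2 to 23.1, 33.0 to 49.2, 42.7 to 53.7 and 54.5 to 63.3 CPM in wildtype. It was higher at E10.0 and E10.5 (log2 differences 1.02 and 1.16, adjusted p = 0.00011 and 6.9e-05 by limma), which goes against a loss of its RNA. Which part of the gene the allele lacks is not given in the sources used here, and the label is given as deposited throughout. The 24 wildtype libraries of stages other than E10.0 stood apart from the 10 wildtype libraries of E10.0 and the 34 labelled Hoxa2-/-. Ski, a transcriptional co-repressor gene, lay at 26.3 to 108 CPM in the former and at 9.28 to 22.8 CPM in the latter. Irf2bp2, another co-repressor gene, lay at 26.6 to 82.6 against 7.36 to 19.1 CPM. No label names this division. At every stage but E10.0 it coincides with the genotype label, and the label and the division cannot be told apart there. At E10.0 all libraries lie on the same side. The first and the last stage of each label also lie on the same side, so E10.5 against E9.0 is not crossed by it. Depth ran from 8912251 to 20619153 reads per library. Defining markers of arch mesenchyme (8 of 8 in the table) summed to 328 to 1038 CPM, so the labelled tissue was seen in every library. In bulk tissue, fewer cells of a type and less RNA per cell cannot be told apart.

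Several mitochondrial genes have near-identical copies in the nuclear genome, which limits how their reads can be assigned. The values of mt-Co2, the gene of a copper-binding subunit of complex IV, depend on how such reads were shared out. Its first 90 bases are therefore shown with its copies. They lie at chrM:7013-7102 (plus strand), chr1:24615476-24615565 (minus strand) and chr2:22587873-22587962 (minus strand) in mm10 with GENCODE M21 transcripts, and capitals mark bases that differ from mt-Co2:
mt-Co2: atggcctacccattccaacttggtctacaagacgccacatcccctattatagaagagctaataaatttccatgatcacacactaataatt
Gm28661: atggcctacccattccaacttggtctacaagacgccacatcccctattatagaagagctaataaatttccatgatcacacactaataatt
Gm13341: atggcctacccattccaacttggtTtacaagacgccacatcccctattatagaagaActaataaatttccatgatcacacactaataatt
Gm28661 had 0 mismatches to mt-Co2 over these bases and Gm13341 had 2. Summed over the 68 libraries, mt-Co2 held 351326 reads and Gm28661 held 349919, so mt-Co2 took 50.1% of both. The share of mt-Co2 ran only from 48.8 to 51.7% over libraries. The same near-equal split was found for mt-Co3 with Gm28437 (49.99%), mt-Nd3 with Gm28438 (49.6%), mt-Nd4l with Gm10222 (49.8%) and mt-Atp6 with Gm10925 (48.6%). The less similar Gm13341 left mt-Co2 with 78.6% of both. mt-Nd4 shared a stretch of 876 bases at 100% identity with Gm28439 and held 72.0% of both. mt-Co1 held 76.2% with Gm29216 (99.8% identity) and 86.6% with Gm13340. Deposited levels of these genes may therefore hold only part of their reads, and levels between mitochondrial genes are uncertain. Adding the reads of the copies back, an alternative chosen after the data were seen, ended 1 of 207 calls on named members. Those calls include nuclear genes and mitochondrial genes without a copy, whose values the addition leaves as they are. Where the share is nearly constant over libraries, it scales all libraries nearly alike and can change log2 differences little. The count is therefore no measure of how the reads were shared out. mt-Nd1, mt-Nd6, mt-Cytb and mt-Atp8 had no such copy.

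**Figure D1:**
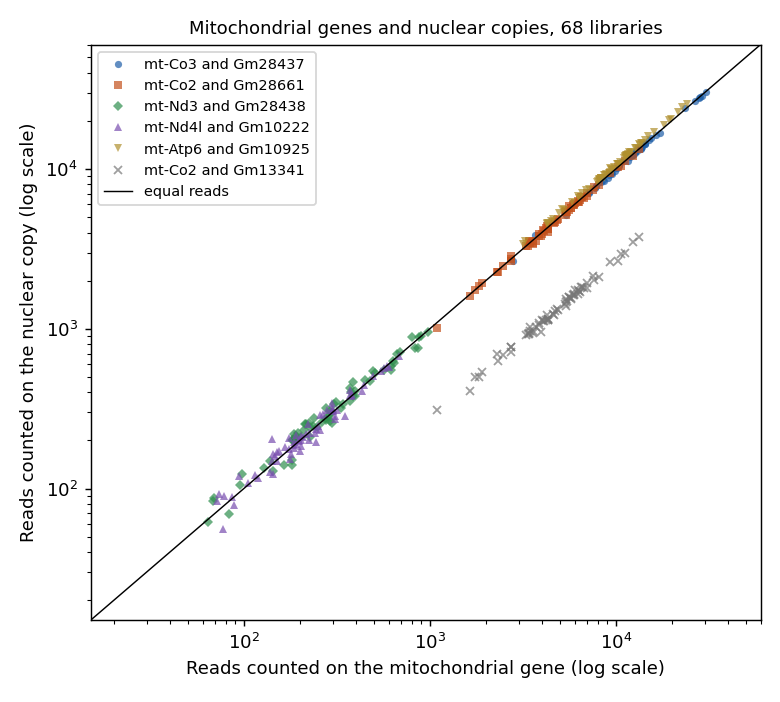
Reads of mitochondrial genes against reads of their near-identical nuclear copies, 1 point per library, both axes logarithmic, with the line of equal counts. mt-Co2 and Gm28661, mt-Co3 and Gm28437, mt-Nd3 and Gm28438, mt-Nd4l and Gm10222, and mt-Atp6 and Gm10925 lie on or close to the line, with the mitochondrial gene at 48.6 to 50.1% of both.

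Levels per kilobase were taken over the union of all annotated exons of a gene, from means over all libraries. That length can exceed any single transcript, as with the 6443 bases of Atp5l. Levels of nuclear genes can therefore be understated, and their distance from mitochondrial genes overstated. On this measure the median of mitochondrial genes was 483 CPM per kilobase (range 52.3 to 1111, 13 genes). It was 69.2 for the 80 nuclear subunit genes (0.833 to 513). The highest mitochondrial levels per kilobase were those of mt-Nd1 of complex I at 1111 and mt-Cytb, the only mitochondrial subunit of complex III, at 1032. The lowest were mt-Nd4l at 52.3 and mt-Nd3 at 62.1, and both share reads with a copy. Among nuclear genes the highest per kilobase were Atp5b at 513 and Atp5a1 at 347, which encode the catalytic and the alpha subunit of ATP synthase. Cox7a1 at 0.833, Cox6b2 at 2.88 and Cox4i2 at 3.82 CPM per kilobase were the lowest, and each is the tissue-restricted isoform of a complex IV subunit. Medians per kilobase of nuclear genes were 57.4 for complex I (36 genes), 117 for II (4), 123 for III (8), 86.0 for IV (16) and 70.6 for V (16).

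Summed over genes without regard to length, and from the first stage to the last, the 13 mitochondrial genes gave 5223 ± 498 CPM (SD, n = 5), 6307 ± 532 (n = 5), 6105 ± 1115 (n = 5) and 10035 ± 1005 (n = 3) in wildtype PA1. In wildtype PA2 the sums were 5963 ± 590 (n = 4), 5103 ± 481 (n = 4), 5865 ± 732 (n = 5) and 9603 ± 600 (n = 3). In PA1 labelled Hoxa2-/- they were 3756 ± 290 (n = 4), 4610 ± 1165 (n = 5), 5866 ± 662 (n = 5) and 6529 ± 791 (n = 3). In PA2 with that label they were 3306 ± 515 (n = 4), 4023 ± 880 (n = 5), 5113 ± 597 (n = 5) and 5990 ± 397 (n = 3). The 6 wildtype libraries of E10.5 were thus above every other library, while the 34 libraries with the label Hoxa2-/- lay between 2615 and 7435 CPM. Wildtype E10.0 lies on the other side of the division described above from the stages on either side of it.

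The 80 nuclear subunit genes moved much less as a sum. In wildtype PA1 they gave 12205 ± 271 CPM (n = 5) at E9.0 and 14263 ± 408 (n = 3) at E10.5, and in PA2 labelled Hoxa2-/- 12965 ± 1687 (n = 4) and 13215 ± 444 (n = 3). All 68 libraries lay between 10921 and 15592. The ratio of the mitochondrial to the nuclear sum was 0.607 to 0.771 in the 6 wildtype libraries of E10.5 and at most 0.528 in the other 62 libraries. Its lowest value, 0.174, was in PA2 labelled Hoxa2-/- E9.0 replicate 3.

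**Figure D2:**
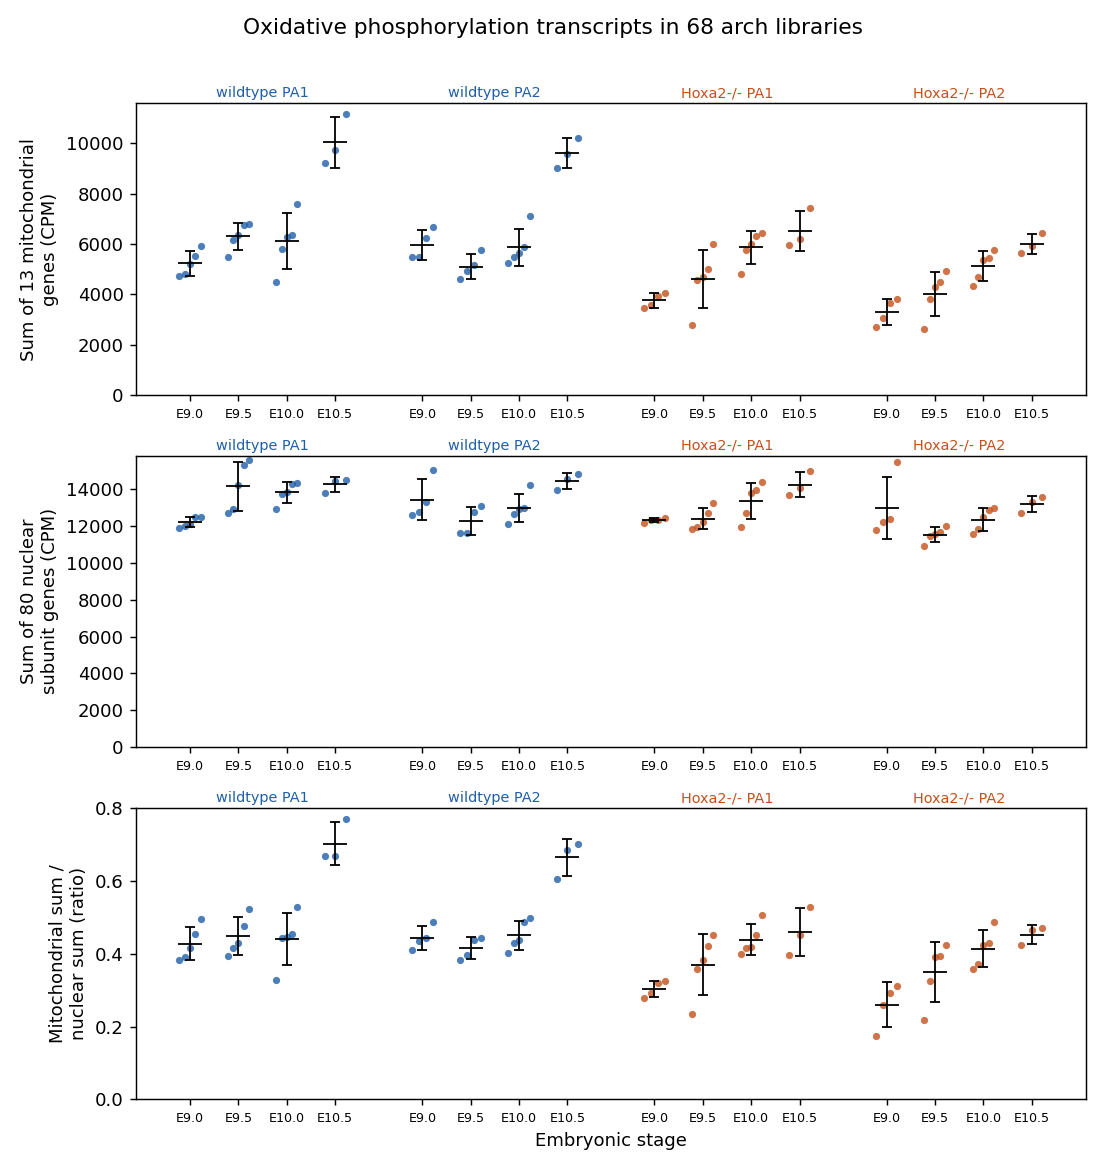
Summed CPM of 13 mitochondrially encoded genes, of 80 nuclear subunit genes, and their ratio, by stage, arch and label, 1 point per library. The ratio lies at 0.607 to 0.771 in the wildtype libraries of E10.5 and at or below 0.528 in all others.

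The question of developmental time was addressed by E10.5 against E9.0 within each arch and label. Mitochondrial genes rose by the last stage in every arch and label, and most nuclear subunit genes rose in PA1. Of the 13 mitochondrial genes, 12 were higher at E10.5 in wildtype PA1, 9 in wildtype PA2, 12 in PA1 labelled Hoxa2-/- and 12 in PA2 with that label, and none was lower. Their median log2 differences were 0.89, 0.59, 0.77 and 0.84. Of 79 nuclear subunit genes tested, 57, 21, 47 and 7 were higher in the same order and 3, 1, 1 and 3 were lower, with medians of 0.40, 0.18, 0.32 and 0.10. Over all 18428 genes tested, 42.5, 36.9, 31.2 and 30.9% passed in either direction (limma, adjusted p under 0.05), with 21.0, 17.5, 14.8 and 15.8% higher and 21.5, 19.4, 16.5 and 15.1% lower. The nuclear count in the higher direction is thus a smaller share than that of all genes in PA2 labelled Hoxa2-/- and a larger one in the other 3. In either direction, the nuclear calls of wildtype PA2 (22 of 79) are also a smaller share than that of all genes. Whether the stage change differed between arches or labels was not tested.

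These counts depended on single libraries outside wildtype PA1. In wildtype PA2, 22 nuclear genes passed, and 12 did without E9.0 replicate 1, 36 without E9.0 replicate 2, 12 without E10.5 replicate 1 and 11 without E10.5 replicate 2. Its 9 mitochondrial calls became 5 without E9.0 replicate 1, 4 without E9.0 replicate 5 and 3 without E10.5 replicate 1. In PA1 labelled Hoxa2-/- the 48 nuclear calls became 20 without E10.5 replicate 1, and the 12 mitochondrial ones 6 without E10.5 replicate 3. In PA2 with that label the 10 nuclear calls became 28 without E9.0 replicate 3 and 6 without E9.0 replicate 4, E10.5 replicate 2 or E10.5 replicate 3.

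mt-Co1, which encodes the catalytic subunit of complex IV, showed the change in every library, with reads that may be shared with its copies Gm29216 and Gm13340. In wildtype PA1 it stood at 621, 873, 829, 723 and 699 CPM at E9.0, and at E10.5 at 1914, 1651 and 1651 CPM. In PA2 labelled Hoxa2-/- it stood at 453, 520, 429 and 603 CPM at E9.0, and at E10.5 at 923, 826 and 926 CPM. The stages did not overlap in either. The log2 differences were 1.22 ± 0.14 (SE, adjusted p = 1.5e-10) in wildtype PA1, 0.95 ± 0.14 (3.5e-07) in wildtype PA2, 0.86 ± 0.14 (3.7e-06) in PA1 labelled Hoxa2-/- and 0.84 ± 0.14 (5.7e-06) in PA2 with that label. Leaving out any 1 library of the compared groups kept all 4 calls, at 0.77 to 1.28.

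mt-Cytb, which has no near-identical nuclear copy in the table, behaved alike. In wildtype PA2 it stood at 1105, 1181, 1067 and 1035 CPM at E9.0, and at E10.5 at 2070, 1944 and 1820. In PA1 labelled Hoxa2-/- the values were 772, 896, 768 and 842 CPM, then 1392, 1392 and 1563. Every E10.5 library thus exceeded every E9.0 library of its arch and label. The log2 differences in the order used above were 1.07, 0.83, 0.82 and 0.85. mt-Nd2, a core subunit of complex I, was the mitochondrial gene that passed nowhere, at 0.37, 0.12, 0.30 and 0.35. mt-Nd1, mt-Nd3 and mt-Nd4l passed in all but wildtype PA2, where they were at 0.39, 0.38 and 0.51. The call of mt-Nd3 in wildtype PA1, at 0.74, was lost without E10.5 replicate 1 (0.66, adjusted p = 0.0605), and 3 of 7 libraries ended it in PA1 labelled Hoxa2-/-.

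**Figure D3:**
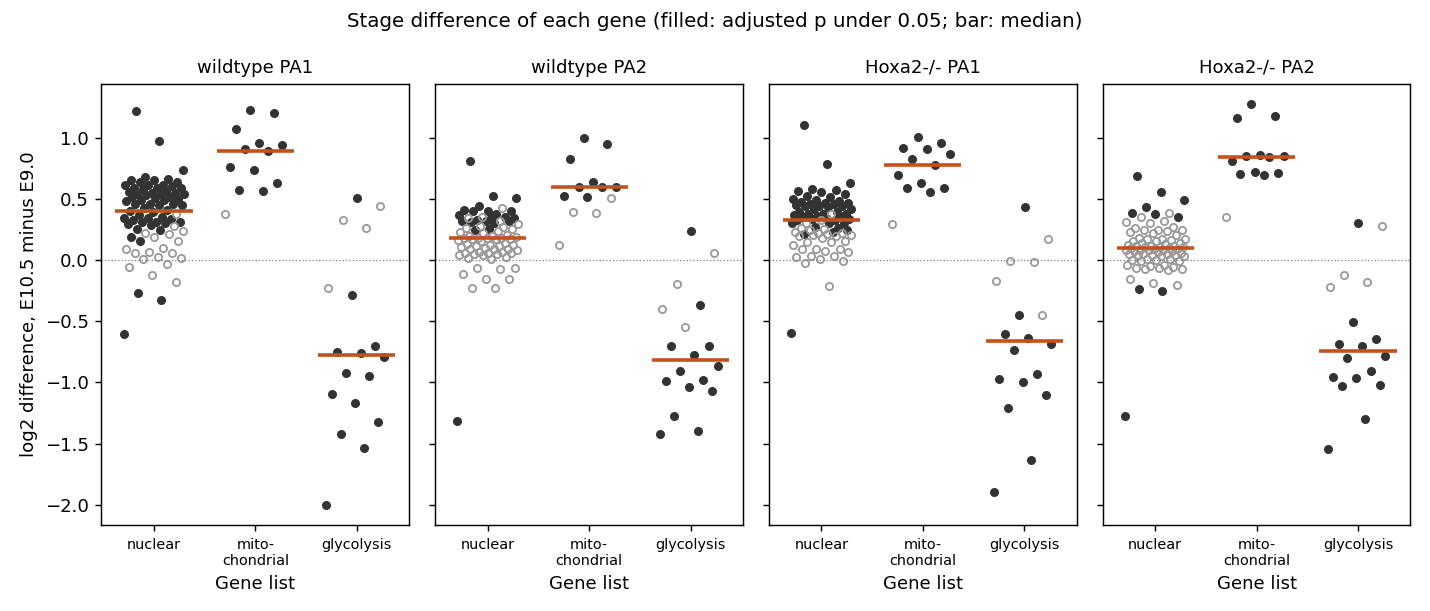
Log2 difference of E10.5 against E9.0 for each tested nuclear subunit gene, mitochondrial gene and glycolysis gene in the 4 combinations of arch and label. Medians are 0.40, 0.18, 0.32 and 0.10 for nuclear, 0.89, 0.59, 0.77 and 0.84 for mitochondrial and -0.78, -0.82, -0.66 and -0.75 for glycolysis genes.

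Among nuclear genes the rise took in every complex in PA1, whereas no complex III gene was called higher in PA2. In wildtype PA1, 28 of 36 complex I genes rose, 1 of 4 of complex II, 5 of 8 of complex III, 12 of 15 of complex IV and 11 of 16 of complex V. In PA1 labelled Hoxa2-/- the counts were 24, 2, 3, 8 and 10, in wildtype PA2 11, 1, 0, 2 and 7, and in PA2 labelled Hoxa2-/- 3, 0, 0, 2 and 2. Complex I thus gave the most calls in each, and it also has the most genes. Over all genes tested, 21.0% were higher in wildtype PA1, 14.8% in PA1 labelled Hoxa2-/-, 17.5% in wildtype PA2 and 15.8% in PA2 labelled Hoxa2-/-. Nuclear genes that rose in all 4 combinations were Ndufs8, Ndufb4 and Ndufb2 of complex I and Atp5l and Atp5k of the membrane part of complex V. Ndufb2 fell outside the rule for named genes and was chosen after its values were seen. Another 18 nuclear genes rose in 3 combinations, 22 in 2, 14 in 1 and 16 passed in none.

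Ndufs8, an iron-sulfur subunit of complex I on chromosome 19 (3908863 to 3912774, minus strand, mm10), gave the clearest nuclear change. In wildtype PA1 it stood at 55.9, 55.1, 56.2, 59.6 and 54.5 CPM at E9.0, and at E10.5 at 114, 121 and 99.6 CPM. In wildtype PA2 the values were 54.2, 76.4, 65.4 and 72.3, then 111, 124 and 118 CPM. In PA1 labelled Hoxa2-/- they were 54.6, 56.1, 52.1 and 59.9, then 108, 93.3 and 88.3 CPM. In PA2 with that label they were 51.2, 56.4, 73.8 and 61.7, then 85.8, 81.4 and 87.1 CPM. The stages did not overlap in any of the 4. The log2 differences were 0.97 ± 0.11 (SE, adjusted p = 3.3e-10), 0.81 ± 0.12 (1.4e-07), 0.78 ± 0.12 (5.3e-07) and 0.49 ± 0.12 (0.00097). The last did not pass when only its 2 groups were fitted (adjusted p = 0.0517). At E9.5 Ndufs8 lay between in wildtype PA1, at 66.3 to 80.9 CPM. It overlapped E9.0 in PA1 labelled Hoxa2-/-, at 58.7 to 80.2 CPM. The same held in wildtype PA2, at 53.6 to 64.8 CPM, and in PA2 labelled Hoxa2-/-, at 52.9 to 64.4 CPM.

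Atp5l rose from 50.3 to 77.5 CPM in wildtype PA1, with log2 differences of 0.62, 0.51, 0.51 and 0.55 in the 4 combinations, and kept its calls without any 1 library. Atp5k rose by 0.66, 0.52, 0.54 and 0.44 and Ndufb4 by 0.64, 0.40, 0.53 and 0.38. Their calls in PA2 labelled Hoxa2-/- were close to the threshold (adjusted p = 0.046 and 0.040). Fitted on only the compared groups, the calls of Atp5l, Atp5k and Ndufb4 there were lost (adjusted p = 0.152, 0.346 and 0.278). For Atp5k and Ndufb4, edgeR on recovered reads gave adjusted p values of 0.0986 and 0.0794. Without E9.0 replicate 4, Atp5k was at 0.18 and Ndufb4 at 0.25.

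The promoters of nuclear subunit genes are known for sites of NRF1, a factor that drives many respiratory genes. The promoters of Atp5k and Ndufb4, which rose with stage, and of Sdha, which differed with the label, are shown as examples that carry it. RefSeq promoters (GRCm38.p6, 250 bases before to 50 after the start) lay at chr5:108434350-108434649, chr16:37654319-37654618 and chr13:74350191-74350490, all on the minus strand, and capitals mark matches to GCGCANGCG on either strand:
Atp5k: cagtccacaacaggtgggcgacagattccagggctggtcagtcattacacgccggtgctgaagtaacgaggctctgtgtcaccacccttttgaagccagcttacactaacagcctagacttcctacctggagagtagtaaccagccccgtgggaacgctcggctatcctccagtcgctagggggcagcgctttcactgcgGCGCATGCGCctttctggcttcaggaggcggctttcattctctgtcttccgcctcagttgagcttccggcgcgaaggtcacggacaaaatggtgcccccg
Ndufb4: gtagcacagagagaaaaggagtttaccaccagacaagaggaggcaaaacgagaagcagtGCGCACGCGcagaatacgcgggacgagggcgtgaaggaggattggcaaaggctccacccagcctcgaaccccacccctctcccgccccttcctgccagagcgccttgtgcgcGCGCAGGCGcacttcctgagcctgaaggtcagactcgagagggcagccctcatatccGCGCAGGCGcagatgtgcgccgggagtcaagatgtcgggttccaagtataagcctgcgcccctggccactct
Sdha: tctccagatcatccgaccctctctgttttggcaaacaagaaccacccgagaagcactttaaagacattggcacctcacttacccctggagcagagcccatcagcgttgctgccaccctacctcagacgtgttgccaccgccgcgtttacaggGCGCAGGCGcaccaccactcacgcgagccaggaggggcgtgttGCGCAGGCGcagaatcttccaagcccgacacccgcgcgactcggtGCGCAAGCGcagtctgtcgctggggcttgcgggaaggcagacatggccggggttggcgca
Atp5k held 2 matches, which overlap on opposite strands, and Ndufb4 and Sdha held 3 each. Of the 80 nuclear subunit genes, 65 matched a promoter by symbol, and 20 of these (30.8%) held GCGCANGCG, the letters of NRF1, against 7.03% of 27025 promoters. CCGGAAG, the core letters of ETS factors such as GABP, was in 24.6% against 9.93%, AAGATGGC, those of YY1, in 13.8% against 3.19%, and TATAAA in 7.69% against 15.7%. CCAAT was in 43.1% against 41.1%. Letters of different motifs may overlap. GCGCANGCG was present in 3 of the 5 nuclear genes called higher in all 4 stage comparisons and in 7 of the 17 with a promoter called higher in none. The 17 include Uqcrc1, Atp5g1 and Cox7a2l, which were called lower, and Cox7a1, which was not tested. Among genes with a promoter called higher in 3 stage comparisons, 2 held GCGCANGCG and 12 did not. Among those called higher in 2, 6 held it and 12 did not, and in 1, 2 held it and 9 did not. Ndufs8, called higher in all 4, did not hold it. A match is a description of the letters, not of binding.

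Complex IV isoforms did not move as 1 group. Cox4i2, the isoform of subunit 4 tied to low oxygen, was the only nuclear member lower at E10.5 in all 4 combinations. In wildtype PA2 it stood at 4.02, 6.20, 4.74 and 3.57 CPM at E9.0, and at E10.5 at 1.5, 0.896 and 1.33. In PA2 labelled Hoxa2-/- it stood at 4.52, 4.68, 5.77 and 5.08, then at 1.45, 1.60 and 1.40 CPM. The stages did not overlap in PA2 of either label. Log2 differences in PA2 were -1.32 ± 0.20 (SE, adjusted p = 2.9e-07) in wildtype and -1.27 ± 0.20 (8.9e-07) with the label Hoxa2-/-, and no left-out library ended these calls. In PA1 they were -0.60 (adjusted p = 0.0076) and -0.59 (0.017). The wildtype PA1 call was lost without E10.5 replicate 1 (adjusted p = 0.0636), and 3 of 7 libraries ended the other. Cox4i2 is low, at 15 to 116 reads per library. The general isoform Cox4i1 rose in PA1, from 190 to 242 CPM in wildtype (log2 difference 0.35) and by 0.26 with the label Hoxa2-/-, and was at 0.19 and 0.08 in PA2.

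Cox6b2, the isoform of subunit 6b best known from testis, rose in 3 of the 4. In wildtype PA1 it stood at 1.93, 3.42, 1.79, 1.73 and 2.21 CPM at E9.0, and at E10.5 at 7.52, 5.54 and 6.14, without overlap. The log2 difference was 1.22 ± 0.21 (SE, adjusted p = 4.1e-06) there, 1.10 ± 0.22 (9.1e-05) in PA1 labelled Hoxa2-/- and 0.69 ± 0.22 (0.014) in PA2 with that label. The last was lost without E10.5 replicate 1 (adjusted p = 0.0595). In wildtype PA2, E9.0 replicate 2 stood at 9.78 CPM against 2.52, 2.59 and 2.60 in the others of its group, and the difference did not pass (0.42, adjusted p = 0.13). Its general counterpart Cox6b1 rose from 153 to 215 CPM in wildtype PA1. Uqcrc1, a core subunit of complex III, fell in wildtype PA1 from 473 to 377 CPM (log2 difference -0.33, adjusted p = 0.0042) and in PA2 labelled Hoxa2-/- (-0.25, adjusted p = 0.047), where leaving out any of 5 of 7 libraries ended the call. Atp5g1 fell in wildtype PA1 (-0.27) and Cox7a2l in PA2 labelled Hoxa2-/- (-0.24).

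**Figure D4:**
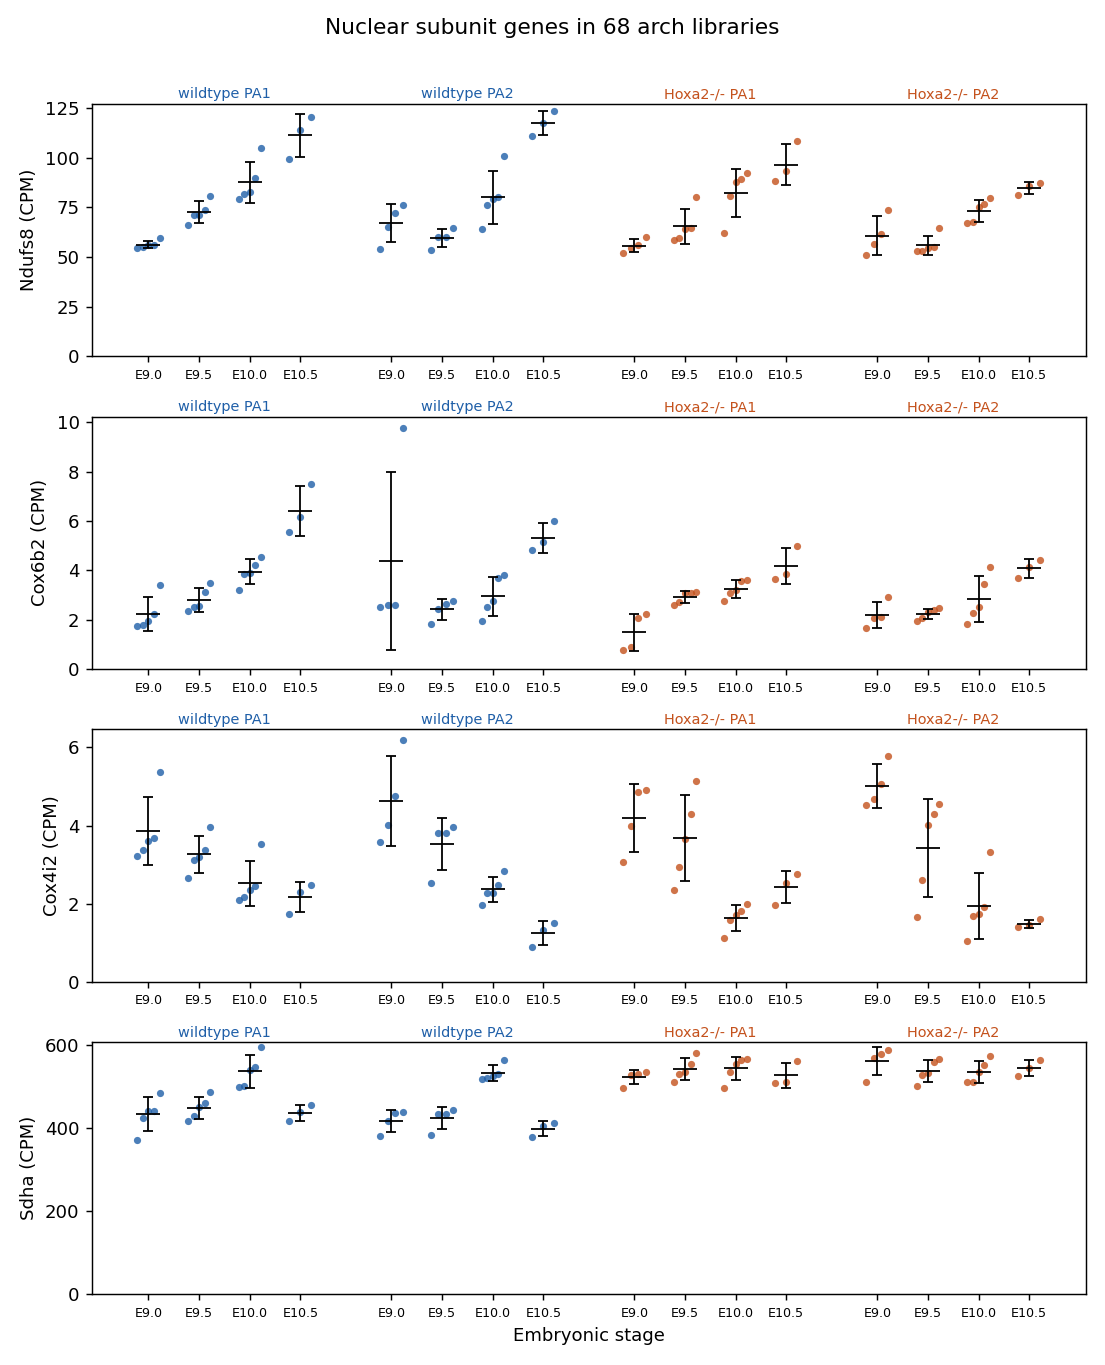
CPM of Ndufs8, Cox6b2, Cox4i2 and Sdha by stage, arch and label, 1 point per library. Ndufs8 rises from 54.5 to 59.6 CPM at E9.0 to 99.6 to 121 CPM at E10.5 in wildtype PA1, Cox4i2 falls in PA2, and Sdha lies at 372 to 487 CPM in wildtype libraries of all stages but E10.0 and at 497 to 594 CPM in all others.

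Other genes of mitochondria are given as counts to be read against the shares of all genes above, and their difference from the subunits was not tested. Of 45 assembly factor genes tested, which build the complexes but are not part of them, 10, 5, 8 and 1 rose in the 4 combinations and 8, 4, 3 and 0 fell. Of 23 genes for upkeep and transcription of mitochondrial DNA, 4, 2, 2 and 2 rose and 7, 5, 5 and 5 fell. Polg, the catalytic subunit of the mitochondrial DNA polymerase, fell, with log2 differences of -1.02, -0.92, -0.88 and -0.77. Elac2, which trims the ends of mitochondrial tRNAs, fell as well, at -1.25, -0.76, -0.96 and -0.35. Mterf2, a member of the mitochondrial termination factor family, rose by 0.82, 0.66, 0.59 and 0.40. Tfam, which packages and activates mitochondrial DNA, fell in the wildtype arches (-0.23 and -0.25) and was at -0.15 in both arches labelled Hoxa2-/-. Of 77 mitochondrial ribosomal protein genes, 14, 3, 9 and 2 rose and 14, 18, 6 and 8 fell. Of 76 cytosolic ribosomal protein genes, 2, 0, 0 and 3 rose and 5, 15, 1 and 1 fell.

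Most glycolysis genes fell. Of 18 tested (17 symbols, with Aldoa under 2 gene identifiers), 13, 13, 12 and 13 fell and 1 rose in each, with medians of -0.78, -0.82, -0.66 and -0.75. The gene that rose was Pfkm, a phosphofructokinase isoform, at 0.51, 0.24, 0.44 and 0.30. Ldha, the lactate dehydrogenase subunit that favours lactate production, fell from 6357 to 2376 CPM in wildtype PA1 (log2 difference -1.42 ± 0.14 (SE), adjusted p = 6.9e-12) and also in the other 3 (-1.42, -1.11 and -0.96). Slc2a1, the main glucose transporter, fell at -2.0, -1.40, -1.89 and -1.55, and Pdk1, a kinase that keeps pyruvate from being oxidised in mitochondria, at -1.0, -0.97, -0.96 and -0.63.

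Markers of other tissues also moved between these stages. Heart muscle markers (9 of 10 in the table) summed to 34.0 to 1166 CPM in wildtype PA2 at E9.0 and to 4.49 to 7.80 at E10.5, and in PA2 labelled Hoxa2-/- to 80.3 to 989 and 4.42 to 7.52. Surface epithelium markers (5 of 5) summed to 584 to 917 CPM in wildtype PA1 at E9.0 and 308 to 360 at E10.5. They did not move as 1 group: Epcam, Krt8 and Krt18 were called lower at E10.5 in all 4 combinations and Cdh1 in 1, but Krt14 was called higher in 3. Red cell markers (9 of 9) in wildtype PA1 summed to 1781 to 7767 CPM at E9.0 and 5834 to 8336 at E10.5. Wildtype PA2 E9.0 replicate 2 held 74323 CPM of red cell markers, and PA2 labelled Hoxa2-/- E9.0 replicate 3 held 440 CPM of yolk sac markers (8 of 8) against 4.60 at the lowest of its group. As an addition after the values were seen, 9 libraries were left out. In each, the sum of heart muscle, red cell or yolk sac markers exceeded 5 times the median of its own group. Without them, 40 nuclear genes passed in wildtype PA2 and 29 in PA2 labelled Hoxa2-/-, of which 1 each was lower. The share of all genes that passed in that fit is not given here, so these counts are not read as particular to the members. The part of these tissues in the other counts was not tested.

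The question of genotype was read first at E10.0, where label and division are not confounded. No member passed in either arch at that stage, against 0% of all genes in PA1 and 0.0814% in PA2 (limma). At an unadjusted p under 0.05, 1 member passed in PA1 and 13 in PA2, and edgeR called 0 in both. The median log2 difference of mitochondrial genes was -0.05 in PA1 and -0.20 in PA2.

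At the other stages mitochondrial genes were lower in libraries labelled Hoxa2-/-, and there the label cannot be told apart from the division. In PA1, 7, 10 and 6 of 13 were lower at the 3 stages in order, with medians of -0.63, -0.60 and -0.67. In PA2 the counts were 13, 4 and 11, with medians of -0.93, -0.45 and -0.73, and no mitochondrial gene was higher at any stage. Over all genes, 2.08, 23.6 and 3.05% passed in PA1 and 14.0, 4.48 and 10.3% in PA2, with 1.25, 12.2 and 1.55% lower in PA1 and 7.44, 2.75 and 3.85% lower in PA2. mt-Nd3, mt-Nd4l and mt-Nd5, core subunits of complex I, were lower in all 6. The 4 mitochondrial calls in PA2 at E9.5, these genes among them, became 0 without wildtype replicate 2. Those in PA1 at E10.5 went from 6 to 2 without wildtype replicate 1. Red cell markers in PA1 at E9.0 summed to 1781 to 7767 CPM in wildtype and to 565 to 2715 CPM with the label Hoxa2-/-. Of the 8 members called there, 2 were called without the 9 libraries high for their group in markers of other tissues. In PA2 at E9.0 only 2 of the 13 mitochondrial calls were made when only those 2 groups were fitted.

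mt-Nd3 gave the widest gap. In PA2 at E9.0 it stood at 29.1, 46.2, 36.6 and 21.0 CPM in wildtype and at 5.88, 15.1, 6.44 and 5.91 CPM with the label Hoxa2-/-. At E10.5 the PA2 values were 45.3, 42.2 and 38.5 against 18.8, 17.1 and 19.4 CPM. At E10.0 they were 16.7, 20.3, 21.4, 20.6 and 15.9 against 9.39, 19.0, 17.8, 14.1 and 12.3 CPM, and the groups overlapped at that stage alone of these 3. The log2 differences in PA2 were -1.92 ± 0.24 (SE, adjusted p = 6.1e-08), -0.88 ± 0.22 (0.013), -0.39 ± 0.21 (0.66) and -1.14 ± 0.27 (0.0034) over the 4 stages. Fitted on only the compared groups, the same difference at E9.0 had an adjusted p of 0.0685. In PA1 the differences were -1.21, -1.12, -0.27 and -1.17. The calls at E9.5 in PA2 and at E10.5 in PA1 were each lost when either of 2 libraries was left out, with adjusted p values of up to 0.0648 and 0.0691.

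Sdha, the flavoprotein subunit of complex II, was higher with the label Hoxa2-/- at the same 6 combinations. In PA2 at E10.5 it stood at 378, 412 and 406 CPM in wildtype and at 562, 526 and 545 CPM with the label Hoxa2-/-. At E10.0 it stood at 521, 517, 564, 524 and 530 against 535, 510, 550, 572 and 510 CPM, which overlap. Log2 differences were 0.27, 0.27, 0.02 and 0.27 in PA1 and 0.43, 0.34, 0.01 and 0.45 in PA2, with SEs of 0.06 to 0.07. The call in PA1 at E10.5 was lost without any of 4 of 6 libraries. Sdha followed the division itself: it lay at 372 to 487 CPM in the 24 wildtype libraries of the other 3 stages, at 497 to 594 in the 10 of wildtype E10.0 and at 497 to 586 in the 34 labelled Hoxa2-/-. Sdhb, Sdhc and Sdhd, the other subunit genes of complex II, passed in none of the 8 label comparisons.

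Whether the label effect at E10.0 differed from its mean at the other stages was tested as an addition made after these values were seen. In PA1, 1.55% of all genes passed, and 5 mitochondrial genes were higher (mt-Nd3 at 0.90, mt-Nd4l at 0.88, mt-Nd5 at 0.69, mt-Nd4 at 0.68 and mt-Co1 at 0.66 on the log2 scale), with Sdha lower (-0.25). In PA2, 3.40% passed, with mt-Nd3 at 0.92, mt-Nd4l at 0.88, mt-Co2 at 0.69 and mt-Co1 at 0.51 higher and Sdha lower (-0.40). A higher value here means that the label effect was less negative at E10.0. The call of mt-Nd3 in PA1 was lost with a pseudocount of 0.25 (adjusted p = 0.0541), no filter (0.0547), edgeR (0.0574) and the reads of nuclear copies added (0.0555). Some calls were lost without the 9 libraries high for their group in markers of other tissues. In PA1, mt-Nd3, mt-Nd4 and mt-Nd5 did not pass (0.118, 0.0958 and 0.0937). In PA2, mt-Nd3, mt-Co1 and mt-Co2 did not pass (0.0897, 0.0507 and 0.0704). Fitted on only the compared groups, mt-Nd4 and Sdha in PA1 (0.0600 and 0.0596) and mt-Nd3 and mt-Co2 in PA2 (0.0685 and 0.0679) did not pass, and edgeR did not call Sdha in PA1 (0.0502). Without single libraries, 2 to 7 members passed in PA1 and 2 to 8 in PA2.

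Nuclear subunit genes followed the label less evenly. In PA1, 0, 38 and 1 of 79 were lower at the 3 stages in order, against 1.25, 12.2 and 1.55% of all genes. At E9.0 and E10.5 in PA1 this is a smaller share than that of all genes. In PA2, 14, 7 and 12 were lower at the same stages, against 7.44, 2.75 and 3.85% of all genes. Cytosolic ribosomal protein genes were lower together with them, 75 of 76 in PA1 at E9.5 and 65, 44 and 15 of 76 in PA2. Atp5g2, a gene of the membrane ring of ATP synthase, was lower in 5 of the 6, for example from 64.2 to 44.2 CPM in PA2 at E10.5 (log2 difference -0.53 ± 0.10 (SE), adjusted p = 0.00028). Cox6b1 was lower in 4. In PA1 at E9.5, protein-coding genes outside the members with under 1000 bases of annotated exons had a median of -0.22 (271 genes). Those with 1000 or more had 0.07 (13556). Nuclear subunit genes had -0.27 under 1000 bases (19) and -0.22 above (60). These lengths join the exons of all annotated transcripts, so genes with short transcripts can fall in the longer class. The part of transcript length in the counts was not tested.

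The counts of members called with the label moved with single libraries. In PA1 at E9.0 the 8 calls became 5 without wildtype replicate 2 or 3 or replicate 1 labelled Hoxa2-/-, and 4 without its replicate 3. In PA1 at E9.5 the 51 calls became 31 without wildtype replicate 1 and 33 without wildtype replicate 3, and the 8 calls of E10.5 became 2 without wildtype replicate 1 and 4, 3 and 5 without replicates 1 to 3 labelled Hoxa2-/-. In PA2 at E9.0 the 29 calls became 51 without replicate 3 labelled Hoxa2-/-, 16 without its replicate 4 and 18 without wildtype replicate 2. In PA2 at E9.5 the 12 calls became 5, 3 and 7 without wildtype replicates 1, 2 and 5, and 5, 7 and 5 without replicates 1, 2 and 5 labelled Hoxa2-/-. At E10.5 the 25 became 16 and 13 without wildtype replicates 1 and 2, and 13 and 11 without those labelled Hoxa2-/-. Fitted on only the compared groups, the label gave 13 and 24 calls in PA1 at E9.0 and E9.5 and 2 and 44 in PA2 at E9.0 and E10.5. Whether the label effect differed between PA2 and PA1 was tested at each stage, and no member passed by limma or edgeR, against 0, 0.0109, 0.0163 and 0.0380% of all genes. At an unadjusted p under 0.05, 18, 0, 0 and 2 members passed.

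**Figure D5:**
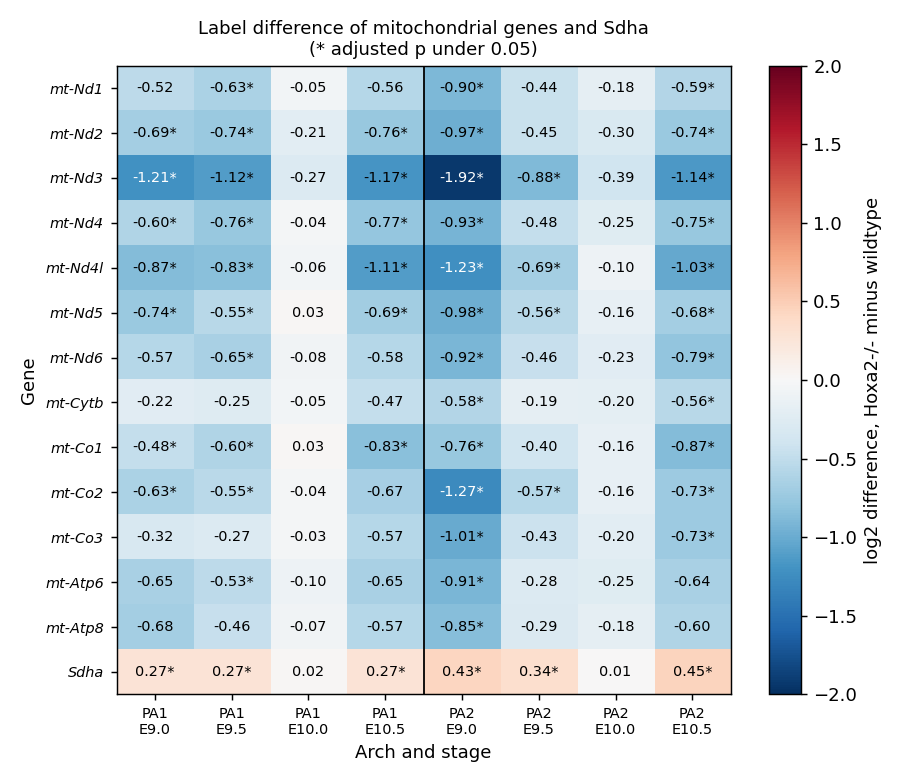
Log2 difference of libraries labelled Hoxa2-/- against wildtype for the 13 mitochondrial genes and Sdha, in both arches at 4 stages. Asterisks mark calls, which among mitochondrial genes number 7, 10, 0 and 6 in PA1 and 13, 4, 0 and 11 in PA2 over the 4 stages. mt-Nd3 lies at -1.92 in PA2 at E9.0, while Sdha is higher by 0.27 to 0.45 at the same stages and by 0.01 to 0.02 at E10.0.

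The question of what distinguishes PA2 from PA1 gave few calls among these genes after E9.5. In wildtype at E9.0, 15 nuclear genes were higher in PA2, against 18.7% of all genes called and 10.2% higher. None was called without PA2 replicate 2, the library rich in red cell RNA, and 23 were without PA2 replicate 1. Leaving out PA1 replicates 1 to 5 gave 6, 5, 9, 6 and 2 and leaving out PA2 replicate 5 gave 7. At E9.5, 34 nuclear genes and mt-Co1 and mt-Nd2 were lower in PA2, with Uqcrh-ps1, against 26.3% called and 13.7% lower over all genes. These 37 calls fell to 11 without PA2 replicate 3, 13 without PA1 replicate 3 or PA2 replicate 5 and 16 without PA1 replicate 1. At that stage 75 of 76 cytosolic and 52 of 77 mitochondrial ribosomal protein genes were lower in PA2 as well. Whether the arch difference changed between these stages was not tested.

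Later wildtype stages gave Ndufb2 alone at E10.0 (lower in PA2 by 0.27 on the log2 scale, adjusted p = 0.036, with 5.94% of all genes called and 1.43% lower) and no member at E10.5 (1.52%). At E10.0 no member passed when any of 7 of the 10 libraries was left out, and 2 members passed without PA1 replicate 1 and 4 without PA2 replicate 3. With the label Hoxa2-/-, mt-Co3 alone was lower in PA2 at E9.0 (-0.55, adjusted p = 0.011, with 24.6% of all genes called and 12.5% lower) and no member passed at E9.5 (9.58%) or E10.5 (1.37%). At E10.0, Ndufb4 (-0.40), Uqcrb (-0.34), a small subunit of complex III, and Cox6c (-0.36), a small subunit of complex IV, were lower (4.23% of all genes called, 1.10% lower). These 3 calls became 22, 5 and 8 without PA1 replicates 1 and 3 and PA2 replicate 5, and 0 without PA1 replicate 2, 4 or 5 or PA2 replicate 1 or 3. Fitted on only the compared groups, Ndufb4 and Uqcrb did not pass (adjusted p = 0.113 and 0.0798). At E9.0 with that label, 2 and 3 members passed without PA1 replicates 3 and 4, and 6, 7, 5 and 3 without PA2 replicates 1 to 4, while mt-Co3 had an adjusted p of 0.0769 on only the compared groups. At E9.5 with that label, 4 passed without PA1 replicate 1 and 1 without PA1 replicate 5 or PA2 replicate 1. Where no member passed by limma, 2, 16 and 24 had an unadjusted p under 0.05 in wildtype E10.5 and in E9.5 and E10.5 labelled Hoxa2-/-. Ndufb2, mt-Co3 and Cox6c were outside the rule of the arch comparison or named because 3 or fewer passed. With the embryo as a block in the fit, which pairs the arches, the members called were 27, 54, 4 and 0 in wildtype and 8, 7, 12 and 0 with the label Hoxa2-/-. In that fit 24.5, 33.5, 9.68 and 2.47% of all genes passed in wildtype and 31.9, 15.6, 8.41 and 2.51% with the label Hoxa2-/-.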

How the data were processed

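RNA was measured by sequencing in 68 libraries of 16 groups. The deposited table holds 1 column per library. Its values are a signal in CPM with scaled library sizes, deposited by the authors, and the column totals differ. Per the submitters' processing notes the tools were bcl2fastq 2.18, TopHat2 2.1.1 and R 3.3.2, with build mm10. The counting program, annotation and strandedness are not given in the sources used here, so reads of overlapping and antisense genes cannot be separated. Every deposited value was a whole multiple of 1 read (largest distance 9.09e-05 reads), which gave whole reads per gene for 100% of values in each library. The cDNA was amplified without molecular identifiers, so reads are not independent molecules.

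GENCODE M21 gave symbols for 21921 of 21948 identifiers. The 18428 genes that reached 1 CPM in 3 or more libraries were tested two-sidedly on log2(CPM + 1) by limma 3.58.1 (R 4.3.3), with 16 group means, a trended prior and Benjamini-Hochberg adjusted p-values over the 18428. A call is an adjusted p under 0.05, and log2 differences on this scale understate changes of low genes. The plan had assumed plain CPM, and no test was changed. Near-identical copies were sought among transcripts of genes in the deposited table with BLAST+ 2.17.0 (at least 95% identity over at least 100 bases and 50% of either transcript). Promoters came from RefSeq (GRCm38.p6).

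Named members are all mitochondrial genes, the isoform pairs of complex IV, up to 5 nuclear genes per direction and comparison family with the largest mean difference among those called in at least 2 comparisons (with a mean of 5 CPM or more in 1 of the groups compared), and members called at E10.0. An exception to the CPM minimum was made by the isoform pairs. Members, gene lists and tests were chosen with earlier results of these data known, and the lists give no independent support.

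The series text says that both arches came from 1 embryo. Same-embryo libraries deviated together (median r = 0.35 over 33 pairs, 30 above 0.1, against -0.12 over 116 other pairs), so the embryo was used as a block in an alternative (consensus correlation 0.22). Replicates are embryos. Other alternatives were a pseudocount of 0.25, no filter, median-of-ratios scaling, only the compared groups, edgeR 4.0.16 on the recovered reads and each library left out. Added after seeing the data were the reads of nuclear copies, leaving out 9 libraries with markers of other tissues, and the comparison of the label effect at E10.0 with the other stages. The procedure was tested on simulated data.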

Additional observations from a re-analysis of the deposited data

Results flagged for a closer look

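Summed levels and single genes were examined in each group of 4 or 5 libraries, which gave 108 combinations. In 13 of them a library had a gap to the nearest of the others that was large for the range of its group. For a single combination chance gives about 1 in 20. The same libraries recur over the measures, so the combinations are not independent. The summed nuclear subunit genes reached 15465 CPM in PA2 labelled Hoxa2-/- E9.0 replicate 3. mt-Co1 was low in wildtype PA1 E9.5 replicate 2 (802 CPM), mt-Cytb was low in PA1 labelled Hoxa2-/- E10.0 replicate 1 (1091 CPM), and mt-Nd3 was high in PA2 labelled Hoxa2-/- E9.0 replicate 2 (15.1 CPM). Ndufs8 was high in replicate 4 of both arches of E9.5 labelled Hoxa2-/-, at 80.2 CPM in PA1 and 64.4 CPM in PA2, which came from the same embryo. Cox4i2 was high in wildtype PA1 E9.0 replicate 4 (5.38 CPM) and E10.0 replicate 3 (3.52 CPM), and low in wildtype PA2 E9.5 replicate 5 (2.54 CPM). Cox6b2 was high in wildtype PA1 E9.0 replicate 2 (3.42 CPM) and wildtype PA2 E9.0 replicate 2 (9.78 CPM). Sdha was low in wildtype PA2 E9.5 replicate 1 (384 CPM) and high in wildtype PA2 E10.0 replicate 3 (564 CPM).

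The label effect at E10.0 differed from its mean at the other stages, by a test of that difference (limma), for 6 members in PA1 and 5 in PA2. In PA1 the log2 differences were 0.90 for mt-Nd3, 0.68 for mt-Nd4, 0.88 for mt-Nd4l, 0.69 for mt-Nd5, 0.66 for mt-Co1 and -0.25 for Sdha. In PA2 they were 0.92 for mt-Nd3, 0.88 for mt-Nd4l, 0.51 for mt-Co1, 0.69 for mt-Co2 and -0.40 for Sdha. The same stages differ in whether the label coincides with the division of libraries, so stage and division cannot be told apart.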

How the results depend on the processing

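No result reversed its direction under any alternative, and median-of-ratios scaling moved the median of all genes by at most 0.0221 on the log2 scale. Counts of members that moved by over 1.5 times are given here, with the causes not tested. Among the alternatives, the share of all genes that passed is given only for the replicate block (embryo). The other counts are therefore not read as particular to the members. Fitted on only the compared groups, wildtype PA2 against PA1 gave 21 at E9.5 and 2 at E10.0, that comparison labelled Hoxa2-/- gave 0 at E9.0 and 1 at E10.0, the label gave 13 in PA1 at E9.0, 24 in PA1 at E9.5, 2 in PA2 at E9.0 and 44 in PA2 at E10.5, the comparison of the label effect at E10.0 gave 3 in PA2, and E10.5 against E9.0 gave 14 in PA2 labelled Hoxa2-/-. With the replicate block (embryo), PA2 against PA1 gave 27 at E9.0 and 4 at E10.0 in wildtype, and 8, 7 and 12 at E9.0, E9.5 and E10.0 labelled Hoxa2-/-, and the block moved no other count by as much. edgeR gave 24 and 0 in wildtype arches at E9.0 and E10.0 and 2 in arches labelled Hoxa2-/- at E9.0. Median-of-ratios scaling gave 0 in wildtype arches at E10.0 and 2 in those labelled Hoxa2-/- at E9.0, where no filter also gave 2. Without the 9 libraries high in markers of other tissues, arches gave 1, 16 and 7 at E9.0, E9.5 and E10.0 in wildtype and 8, 6 and 1 labelled Hoxa2-/-, the label gave 2 in PA1 at E9.0, the comparison of label effects at E10.0 gave 3 in PA1, and E10.5 against E9.0 gave 44 in PA2 labelled Hoxa2-/-. Leaving out 1 library at a time, E10.5 against E9.0 gave 65 to 75 in wildtype PA1, 18 to 47 in wildtype PA2, 34 to 60 in PA1 and 19 to 43 in PA2 labelled Hoxa2-/-. The label gave 4 to 8, 31 to 65, 0 and 2 to 7 in PA1 and 16 to 51, 3 to 12, 0 and 11 to 23 in PA2 over the 4 stages, and its difference between arches 0. Arches gave 0 to 23, 11 to 52, 0 to 4 and 0 in wildtype and 1 to 7, 0 to 4, 0 to 22 and 0 labelled Hoxa2-/-. The label effect at E10.0 against the other stages gave 2 to 7 in PA1 and 2 to 8 in PA2. Of 207 calls on named members, the number lost was 2 with a pseudocount of 0.25, 11 with no filter, 5 with median-of-ratios scaling, 55 with only the compared groups, 1 with the replicate block, 10 with edgeR, 1 with nuclear copies added and 37 without the 9 libraries. The pseudocount of 0.25 and the added copies moved no count of members by over 1.5 times. The added copies change only the values of mitochondrial genes with a near-identical copy. Depth limits Cox4i2 and Cox6b2, which have as few as 15 and 9 reads in a library.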

Other observations

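Ldhb, the lactate dehydrogenase subunit that favours lactate use, rose against the trend of Ldha and of the glycolysis genes. It went from 61.0 to 566 CPM in wildtype PA1 between E9.0 and E10.5, a log2 difference of 3.21 ± 0.23 (SE, adjusted p = 3.0e-17 by limma), and by 1.97 in wildtype PA2, 3.00 in PA1 labelled Hoxa2-/- and 1.5 in PA2 with that label. Ppargc1a, the gene of a coactivator of mitochondrial genes, was low at 1.29 and 3.20 CPM and rose in wildtype PA1 (0.90, adjusted p = 0.034) but passed in none of the other 3. Cycs, which encodes the somatic cytochrome c, passed in none, at -0.11, -0.18, -0.04 and -0.09.

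Nuclear members and other genes were set beside each other by annotated exon length for E10.5 against E9.0 in wildtype PA1. This length joins the exons of all annotated transcripts of a gene, so genes with short transcripts can fall in the longer class. The 19 nuclear members under 1000 bases had a median log2 difference of 0.45 and the 60 longer ones 0.35, against 0.17 for 271 short and -0.01 for 13556 longer protein-coding genes that are no members.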
